A study of Arabidopsis thaliana with 11 samples.

Results

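Flower bud 1 and flower bud 2, the 2 flower bud samples of an RNA-sequencing series on wild-type Arabidopsis thaliana, were compared with each other locus by locus. The comparison took 4 of the series' 11 libraries and 2 of its 6 biological samples, chosen by the replicate number in their labels, and each bud sample was sequenced on a HiSeq2000 both alone and in a multiplex, here the HiSeq run and the multiplex run. Both samples were labelled wild type, came from untreated plants grown in soil in a greenhouse, and were taken as flower buds at growth stage 6.0, when the first flower is open. Polyadenylated RNA was sequenced in read pairs with a fragment sizing of 260. The labels do not say whether the 2 samples came from separate plants or from pools, at what time of day they were cut, which buds of an inflorescence were taken, or whether the 2 runs of a sample share a library. The runs of a sample are technical, so the comparison was of 1 biological sample against 1. Folds, counts of loci and counting intervals are given, with no p-value, and they describe these 2 samples.

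An Arabidopsis inflorescence carries its meristem and youngest flowers at the tip and progressively older closed buds below, so a bud sample can hold meristem, meiotic anthers, microspores and nearly ripe pollen together. Within an anther the tapetum, a nurse cell layer, first makes the precursors of the pollen wall and later leaves lipids and oleosins on the grains as the pollen coat. Each stage has genes expressed almost nowhere else, so their levels follow the mix of stages and organs in a sample. The circadian clock runs in nearly all of these cells, with CCA1 and LHY expressed around dawn and repressing evening genes such as GI and ELF4. In such bulk tissue, fewer cells of a type and less RNA per cell cannot be told apart.

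The HiSeq runs held 182707504 read pairs for flower bud 1 and 182862355 for flower bud 2, and the multiplex runs held 35770002 and 34405145. Levels are given as CPM, read pairs over 1000000 pairs of the library after TMM scaling, and pairs of values give the HiSeq run first and the multiplex run second. CPM are not divided by transcript length, so they are compared between samples and not between genes. A fold is the ratio of the HiSeq runs, with an exact 95% interval that covers counting error only. A locus was counted as higher or lower when both runs passed 2-fold in the same direction. Of 28094 loci, 20846 had a mean of at least 0.5 CPM over the 2 samples in both run types. Of these, 382 were higher in flower bud 1, which is 1.83%, and 1690 were lower, which is 8.11%. No locus passed 2-fold in opposite directions in the 2 run types. The log2 folds of the run types differed by a median of 0.0647 and an SD of 0.166 over loci, and their Pearson r across loci was 0.970, a description of loci that share their samples. With library totals alone as the scale, the median log2 fold over all loci was 0.12 in place of -0.01. The split was then 666 higher and 1319 lower, 33.6% and 66.4% of the calls against 18.4% and 81.6% with TMM factors.

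**Figure D1:**
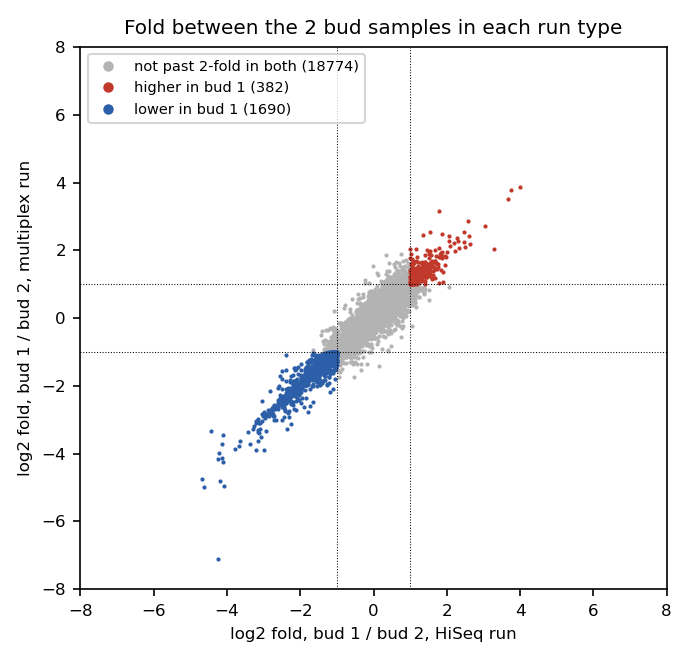
Each point is a tested locus, with the log2 fold of flower bud 1 over flower bud 2 in the HiSeq run on the x axis and in the multiplex run on the y axis, and dotted lines at 2-fold. The 382 loci higher in flower bud 1 (red) and the 1690 lower loci (blue) lie along the diagonal, and the lower loci reach larger folds.

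The fold depended on the length and base composition of the transcript. The median transcript length in the tables was 853.5 bases among loci higher in flower bud 1, 2100 among lower loci and 1488 over all tested loci. The median GC content was 39.4% among higher loci and 43.2% among lower loci, against 41.3% over all. In the shortest decile, up to 713 bases, the median log2 fold of the HiSeq runs was 0.42, and 6.42% of loci were higher and 2.92% lower. In the longest decile, from 2785 bases, the median was -0.64, with 0.05% higher and 24.7% lower. From the lowest to the highest decile of GC content the median went from 0.34 to -0.55, and from the lowest to the highest decile of C content from 0.28 to -0.48. Leaf 1 and leaf 2, wild-type leaf samples of the same labelled stage and growth, were sequenced in the same 2 run types. They were compared by the same rule for a call, but with TMM factors over all 11 libraries on the bud scale. Those factors were 0.646 and 0.743 for the HiSeq runs of leaf 1 and leaf 2. Of 18644 tested loci, 1801 were higher in leaf 1 (9.66%) and 912 lower (4.89%). The leaf folds showed a gradient of the same sign with length, from 0.24 to -0.28. The gradient with GC content was smaller, from 0.27 to -0.07, and that with C content was of opposite sign, from -0.03 to 0.13. A fold relative to the median of loci in the same deciles of length and GC content, called the relative fold below, is therefore given below wherever it ends a call of a named gene, as a measure chosen after these values were seen. By relative fold, 212 of 20645 loci were higher in flower bud 1 (1.03%) and 1023 lower (4.96%). Of these, 133 of the higher and 838 of the lower loci were also past 2-fold without the adjustment. The part of length and base composition in any single difference was not tested.

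**Figure D2:**
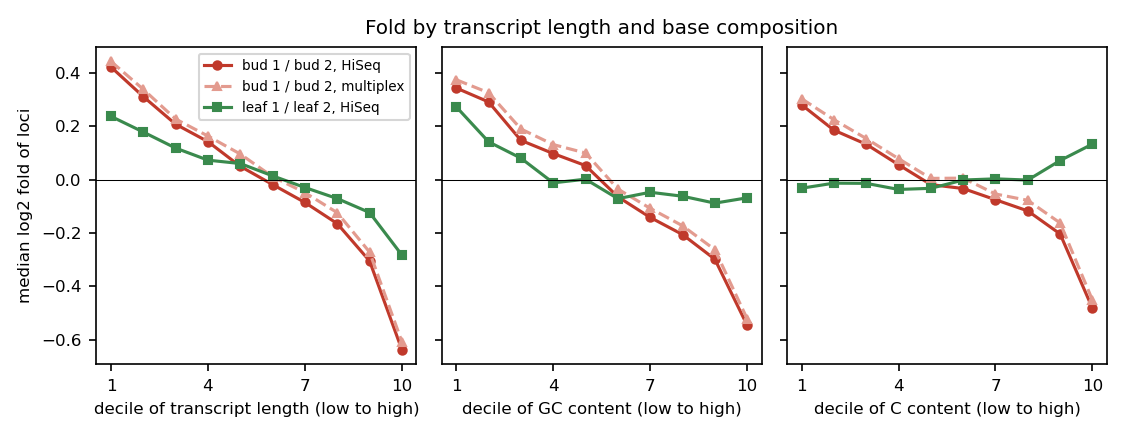
The median log2 fold (y axis) is plotted for tested loci in deciles of transcript length, GC content and C content (x axes), for flower bud 1 over flower bud 2 in both run types and for leaf 1 over leaf 2 in the HiSeq runs. The bud medians fall from 0.42 to -0.64 over the length deciles, and the leaf medians from 0.24 to -0.28.

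Both samples carried the RNA of flowers. AP3, which specifies petals and stamens together with PI, was at 214 and 213 CPM in flower bud 1 and 175 and 172 CPM in flower bud 2. PI was at 337 and 337 CPM in flower bud 1 and 253 and 246 CPM in flower bud 2. In the 7 leaf libraries AP3 was at 0 to 0.186 CPM and PI at 0.145 to 1.26 CPM. SEP3, a cofactor of the organ identity genes, was at 288 and 292 CPM in flower bud 1 and 213 and 212 CPM in flower bud 2. AG, which specifies stamens and carpels, was at 107 and 107 CPM in flower bud 1 and 89.6 and 86.5 CPM in flower bud 2. None of the 11 organ identity genes passed 2-fold. Of these, 9 had log2 folds above 0 in both runs and 2 below, with a list median of 0.36 and a median relative fold of 0.03. The 2 below were AP1 and SEP4. AP1, which specifies flower meristems and sepals, was at 159 and 159 CPM in flower bud 1 and 217 and 211 CPM in flower bud 2. SEP4, another cofactor, was at 16.7 and 16.9 CPM in flower bud 1 and 17.8 and 17.1 CPM in flower bud 2. The genes of stamen, petal and carpel identity thus lay within 2-fold, as did AP1, with log2 folds of -0.46 and -0.41.

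Most genes of the meristem and the youngest flowers lay within 2-fold. Of 28 meristem and boundary genes, 23 were tested, none was higher and 2 were lower in flower bud 1, with a median log2 fold of -0.15 and of -0.28 relative to length and GC content. WUS, which maintains the stem cells of the shoot tip, was at 17.9 and 16.7 CPM in flower bud 1 and 23.1 and 23.2 CPM in flower bud 2. STM, which keeps meristem cells undifferentiated, was at 39.5 and 39.4 CPM in flower bud 1 and 49.9 and 48.8 CPM in flower bud 2. Their ratios of flower bud 1 to flower bud 2, within 2-fold, were 0.772 (interval 0.737 to 0.808) and 0.792 (interval 0.768 to 0.817). The 2 genes past 2-fold were PNY and JAG. PNY, a homeobox gene of inflorescence architecture, was at 21.9 and 21.0 CPM in flower bud 1 and 56.9 and 55.2 CPM in flower bud 2. JAG, which promotes the growth of floral organs, was at 2.2 and 2.09 CPM in flower bud 1 and 5.84 and 5.30 CPM in flower bud 2. Lower members made up 8.70% of the list, against 8.11% of all loci. By relative log2 fold JAG was at -1.30, and PNY, at -0.57, lost its call. CLV3, DRNL, UFO, AHP6 and RAX1 were below the level for testing.

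Genes of dividing cells lay mostly above 0 without passing 2-fold. Of 35 cell cycle and DNA replication genes, 26 were above 0 in both runs and 9 below, with a median log2 fold of 0.51, against -0.01 over all loci, and a median relative fold of 0.43. CDKB1;1, a mitotic kinase, was the 1 member higher past 2-fold, 2.86% of the list against 1.83% of all loci, at 30.6 and 31.9 CPM in flower bud 1 and 14.5 and 13.6 CPM in flower bud 2, a difference of 2.11-fold (interval 2.02 to 2.22). By relative log2 fold CDKB1;1 was at 0.84, short of 2-fold, and 2 other members were higher, the kinesin HIK and the replication helicase subunit MCM2, HIK at 1.15 and MCM2 at 1.07. AUR2, an Aurora kinase, passed 2-fold in the multiplex run alone, at 37.4 and 36.4 CPM in flower bud 1 and 19.7 and 18.1 CPM in flower bud 2. KNOLLE, the syntaxin of the cell plate, was at 125 and 121 CPM in flower bud 1 and 69.4 and 69.2 CPM in flower bud 2. CDKB1;1, AUR2 and KNOLLE thus had higher CPM in flower bud 1 in both runs, past 2-fold in both runs for CDKB1;1 alone. MYB3R1, a transcription factor of the G2/M genes, was lower at 12.1 and 11.7 CPM in flower bud 1 and 31.9 and 33.8 CPM in flower bud 2. It was the 1 lower member, 2.86% of the list against 8.11% of all loci. In the leaves, 20 of 27 tested members were higher in leaf 1 than in leaf 2, with a list median of 1.71. Over all loci tested in leaves, 9.66% were higher in leaf 1.

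Cytosolic ribosomal protein genes had the largest positive median of the 33 lists, 0.81 in the HiSeq runs, and 17 of 20 members were above 0 in both runs. RPS6 (AT4G31700), a protein of the small subunit, was at 727 and 732 CPM in flower bud 1 and 358 and 348 CPM in flower bud 2. RPL23AB, of the large subunit, was at 255 and 255 CPM in flower bud 1 and 125 and 119.7 CPM in flower bud 2. These 2 were past 2-fold, 10% of the list against 1.83% of all loci, and 1 member was lower, 5% against 8.11%. The ribosomal protein L4 locus AT3G09630 was in the opposite direction, at 185 and 186 CPM in flower bud 1 and 387 and 377 CPM in flower bud 2. By relative fold none of the 20 was higher or lower, with RPS6 at 0.91, RPL23AB at 0.70 and AT3G09630 at -0.58, and with library totals as the scale 9 were higher and none lower. Their transcripts were short, with a median of 978.5 bases, and the list's median relative fold was 0.52. The 324 tested loci with ribosomal protein in their annotation were a group chosen after the values were seen and not limited to cytosolic ribosomes. They had a median of 0.60 and a relative median of 0.29. Of them 13 were higher (4.01%, against 1.83% of all loci) and 7 lower (2.16%, against 8.11%), and by relative fold none was higher and 4 were lower. Loci with near-identical copies are uncertain here, since the sources used here do not give the handling of reads that fit several loci.

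Meiotic genes lay within 2-fold but for 2 members. Of 26 members, 18 were above 0 in both runs and 6 below, and the median log2 fold was 0.26. The 2 members past 2-fold, both higher, were 7.69% of the list, against 1.83% of all loci. None was lower, where 8.11% of all loci were. DMC1, the meiotic recombinase, was at 32.1 and 33.1 CPM in flower bud 1 and 21.4 and 20.9 CPM in flower bud 2. ASY1, a protein of the chromosome axis, was at 2.60 and 2.47 CPM in flower bud 1 and 2.13 and 2.21 CPM in flower bud 2. SPO11-1, which makes the meiotic double-strand breaks, was at 1.59 and 1.77 CPM in flower bud 1 and 1.12 and 1.02 CPM in flower bud 2. The core recombination genes thus differed by less than 2-fold. TDM1, needed to leave meiosis after its second division, passed 2-fold at 3.33 and 3.30 CPM in flower bud 1 and 1.48 and 1.38 CPM in flower bud 2, a difference of 2.25-fold (interval 1.95 to 2.62).

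HEI10, a crossover factor, was the other meiosis gene past 2-fold and had the largest fold of its list. It was at 33.2 and 33.1 CPM in flower bud 1 and 8.22 and 8.65 CPM in flower bud 2, a difference of 4.04-fold (interval 3.81 to 4.28). It was also detected in leaves, at 22.1 CPM in leaf 1 and 4.25 CPM in leaf 2. MRD1, a locus down-regulated in the methionine-accumulating mutant mto1, lies near HEI10 in the reference with 1 annotated gene between them. MRD1 was at 21.3 and 20.21 CPM in flower bud 1 and 3.52 and 3.74 CPM in flower bud 2, and at 16.4 CPM in leaf 1 and 2.47 CPM in leaf 2. So both neighbours were several-fold higher in flower bud 1 and in leaf 1 than in the sample with number 2 of the same tissue. MUM4, the next listed gene after HEI10, was at 137 and 139 CPM in flower bud 1 and 127 and 128 CPM in flower bud 2.

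The anther lists, taken from early to late, had calls in both directions. Of 16 early anther and tapetum genes, 2 were higher in flower bud 1, 12.5% against 1.83% of all loci. None was lower, where 8.11% of all loci were, and the list median was 0.17. DYT1, an early tapetum regulator, was at 1.22 and 1.15 CPM in flower bud 1 and 0.571 and 0.539 CPM in flower bud 2. MYB80, a later one, was at 7.06 and 6.92 CPM in flower bud 1 and 2.68 and 2.60 CPM in flower bud 2. Both were more than 2-fold higher in both runs of flower bud 1, and by relative log2 fold MYB80 was at 1.51 and DYT1, at 0.60, lost its call. TDF1, which acts after DYT1, was at 4.12 and 3.75 CPM in flower bud 1 and 2.52 and 2.27 CPM in flower bud 2. AMS, which acts after TDF1, was at 105 and 106 CPM in flower bud 1 and 92.5 and 92.3 CPM in flower bud 2. A6, a tapetal glucanase, was at 363 and 363 CPM in flower bud 1 and 341 and 327 CPM in flower bud 2, a near-level tapetum transcript.

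No gene that builds the pollen wall passed 2-fold. Of 20 members, 15 were above 0 in both runs and 5 below, and the medians were 0.32 without and 0.38 with the adjustment for length and GC content. ACOS5, which activates fatty acids for sporopollenin, was at 267 and 266 CPM in flower bud 1 and 155 and 151 CPM in flower bud 2. The fatty acyl reductase MS2 was at 243 and 242 CPM in flower bud 1 and 162 and 163 CPM in flower bud 2. TKPR1, a reductase of the same pathway, was at 203 and 203 CPM in flower bud 1 and 115 and 111 CPM in flower bud 2. For these 3 enzymes of sporopollenin synthesis the ratio of flower bud 1 to flower bud 2 was 1.5 to 1.76. QRT3, which separates the microspores of a tetrad, had a log2 fold below 0, at 97.2 and 99.9 CPM in flower bud 1 and 184 and 179 CPM in flower bud 2. CALS5, the callose synthase of the tetrad wall, did too, at 49.4 and 47.6 CPM in flower bud 1 and 95.5 and 92.8 CPM in flower bud 2. The relative log2 fold of CALS5, whose transcript is long, was 0.01, and that of QRT3 was -0.73. By relative fold 1 member was higher, LAP5 (PKSB), a polyketide synthase of sporopollenin, at 1.1.

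The calls among later anther genes were in pollen coat proteins. Of 17 late tapetum genes, 5 were lower in flower bud 1 and none higher, 29.4% of the list against 8.11% of all loci, while the list median was -0.06, and 0.07 with library totals as the scale. The 5 were oleosins of the pollen coat that lie in a run of consecutive locus numbers. GRP17, which is needed for pollen hydration on the stigma, was at 1265 and 1254 CPM in flower bud 1 and 3162 and 3078 CPM in flower bud 2, a difference of 2.50-fold (interval 2.49 to 2.51). GRP14 was at 73.1 and 74.0 CPM in flower bud 1 and 236 and 227 CPM in flower bud 2. GRP16 was at 100.5 and 101 CPM in flower bud 1 and 317 and 309 CPM in flower bud 2. The same order of samples held for the other members of the run that passed 2-fold. GRP18 was at 30.4 and 28.3 CPM in flower bud 1 and 99.97 and 97.2 CPM in flower bud 2. GRP20 was at 164 and 167 CPM in flower bud 1 and 447 and 432 CPM in flower bud 2. All 5 were thus lower in flower bud 1 in both runs, by 2.50 to 3.28-fold, and their relative log2 folds were -1.18 to -1.65. GRP19, the other member of the cluster, was level at 1250.3 and 1252 CPM in flower bud 1 and 1176 and 1146 CPM in flower bud 2. Other late tapetum transcripts were also within 2-fold. EXL4, a lipase of the pollen coat, was at 759.7 and 753 CPM in flower bud 1 and 772 and 747 CPM in flower bud 2. ATA27, a tapetal glucosidase, was at 1196 and 1199 CPM in flower bud 1 and 1325 and 1289 CPM in flower bud 2. Reads shared between the GRP copies could be split by the counting, so single values are uncertain.

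Of 34 pollen and pollen tube genes, 32 were tested, none was higher and 3 were lower in flower bud 1, 9.38% against 8.11% of all loci, and the median of 0.03 lay near the -0.01 of all loci. PPME1, a pectin methylesterase of the pollen tube, was at 448 and 445 CPM in flower bud 1 and 407 and 396 CPM in flower bud 2. VGD1, of the same family, was at 668 and 659 CPM in flower bud 1 and 887 and 855 CPM in flower bud 2. PRF4, a pollen profilin that binds actin, was at 55.4 and 55.1 CPM in flower bud 1 and 38.7 and 37.6 CPM in flower bud 2. The actin ACT12 was at 66.3 and 66.4 CPM in flower bud 1 and 63.5 and 64.0 CPM in flower bud 2. These wall and cytoskeleton transcripts of pollen therefore differed by less than 2-fold, in either direction. The 3 genes past 2-fold were receptor-like kinases, a number near the share of all loci. ANX2, which keeps the pollen tube intact, was at 9.33 and 8.98 CPM in flower bud 1 and 25.4 and 24.3 CPM in flower bud 2. AT4G39110, annotated as a malectin and receptor-like kinase family protein, was at 23.8 and 23.9 CPM in flower bud 1 and 83.8 and 80.4 CPM in flower bud 2. AT2G21480 was at 7.81 and 8.28 CPM in flower bud 1 and 20.3 and 18.5 CPM in flower bud 2. ANX1, the close copy of ANX2, was at 14.8 and 12.9 CPM in flower bud 1 and 21.8 and 22.0 CPM in flower bud 2. By relative fold 2 of the 3 were past 2-fold, with AT2G21480 at -0.80.

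The 10 genes of the male germline, the sperm lineage inside pollen, gave no call and had a median of 0.31. DUO1, the regulator of sperm formation, was at 1.5 and 1.47 CPM in flower bud 1 and 1.07 and 0.988 CPM in flower bud 2. HTR10 (MGH3), a histone H3 of sperm, was at 8.08 and 8.44 CPM in flower bud 1 and 6.36 and 5.93 CPM in flower bud 2. TIP1;3, an aquaporin of pollen, was at 29.9 and 30.3 CPM in flower bud 1 and 22.7 and 21.3 CPM in flower bud 2. The sperm genes DUO1 and HTR10 were thus present in both samples within 2-fold of each other. Of 17 tested stamen maturation genes, 1 was lower and none higher, where 8.11% of all loci were lower and 5.88% of this list. The lower gene was ADPG2, a polygalacturonase of organ separation, at 1.39 and 1.18 CPM in flower bud 1 and 3.74 and 3.26 CPM in flower bud 2. Its level was more than 2-fold lower in both runs of flower bud 1. MYB21, which drives late stamen growth under jasmonate, was at 73.6 and 73.5 CPM in flower bud 1 and 68.2 and 69.6 CPM in flower bud 2. MYB24, its partner, was at 23.3 and 24.5 CPM in flower bud 1 and 32.9 and 31.3 CPM in flower bud 2. The list median was -0.11, and 0.02 with library totals as the scale. VSP1, a storage protein induced by jasmonate, was at 4427 and 4440.4 CPM in flower bud 1 and 4331 and 4229.7 CPM in flower bud 2.

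**Figure D3:**
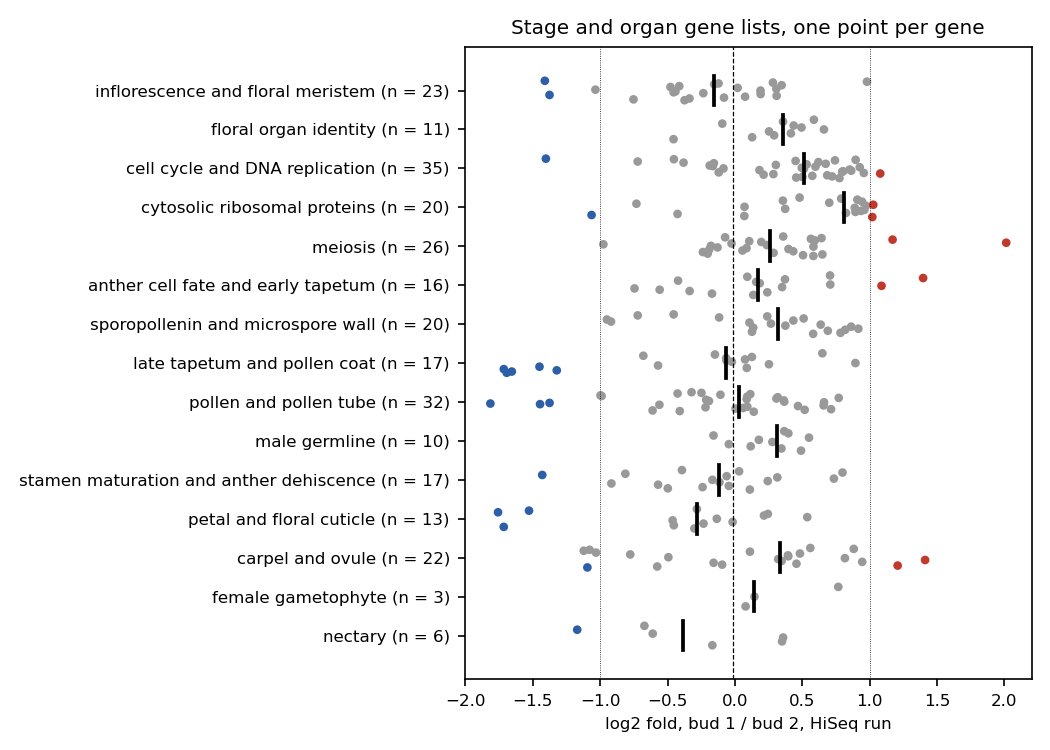
Each point is a tested gene of a stage or organ list, placed by its log2 fold of flower bud 1 over flower bud 2 in the HiSeq runs (x axis), with the list median as a black bar, the median of all loci as a dashed line and 2-fold as dotted lines. Red and blue points passed 2-fold in both runs; most points of every list are grey, and the blue points of the late tapetum list are the 5 GRP oleosins.

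Among the cuticle and petal genes, 3 of 13 tested were lower in flower bud 1 and none higher, 23.1% against 8.11% of all loci, with a median of -0.28. GPAT6, an acyltransferase of floral cutin, was at 111 and 112 CPM in flower bud 1 and 365 and 351 CPM in flower bud 2, a difference of 3.28-fold (interval 3.23 to 3.34). CER1, of wax alkane synthesis, was at 465 and 460.5 CPM in flower bud 1 and 1342 and 1317 CPM in flower bud 2. TCP4, a regulator of organ growth targeted by miR319, was at 19.1 and 19.0 CPM in flower bud 1 and 64.7 and 65.3 CPM in flower bud 2. These 3 were lower in flower bud 1, by 2.88 to 3.38-fold, and their relative log2 folds were -1.12, -1.19 and -0.95, the last short of 2-fold in the HiSeq run. Other cutin genes were nearer to level, with DCR at 678 and 672 CPM in flower bud 1 and 836 and 809.8 CPM in flower bud 2. CYP86A4 was at 149.8 and 147 CPM in flower bud 1 and 176 and 174 CPM in flower bud 2.

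The carpel and ovule list held calls in both directions. The 2 higher members were 9.09% of the list, against 1.83% of all loci. The 1 lower member was 4.55%, against 8.11% of all loci. STK, which gives ovules their identity, was higher at 48.3 and 47.6 CPM in flower bud 1 and 20.9 and 19.6 CPM in flower bud 2, a difference of 2.31-fold (interval 2.22 to 2.40). HEC2, a regulator of the female transmitting tract, was higher at 3.45 and 3.51 CPM in flower bud 1 and 1.29 and 1.65 CPM in flower bud 2. CRC, which shapes carpels and nectaries, was lower at 13.8 and 13.3 CPM in flower bud 1 and 29.6 and 30.3 CPM in flower bud 2. Of 22 members, 13 were above 0 in both runs and 8 below, and the median was 0.33, or 0.07 relative to length and GC content. INO, of the outer integument of the ovule, was at 14.1 and 13.5 CPM in flower bud 1 and 7.33 and 6.91 CPM in flower bud 2. SHP2, a carpel margin gene, was at 30.8 and 29.1 CPM in flower bud 1 and 22.4 and 21.1 CPM in flower bud 2. STK thus passed 2-fold and INO and SHP2 did not. By relative fold no carpel or ovule gene was higher in both runs, with STK at 0.89. HEC2 was at 1.16 in the HiSeq run and fell short of 2-fold in the multiplex run. By the same measure 2 were lower, CRC at -1.05 and NTT, of the transmitting tract, at -1.17. With library totals as the scale 4 members were higher and none lower.

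Genes of later stages were mostly below the level for testing. Only 3 of 11 female gametophyte genes were tested, none past 2-fold, and MYB98, a regulator of the synergid cells beside the egg, was at 1.74 and 1.74 CPM in flower bud 1 and 1.64 and 1.5 CPM in flower bud 2. Of 11 seed and fruit genes 5 were tested and none passed, with FUS3, a seed regulator, at 2.74 and 2.65 CPM in flower bud 1 and 3.36 and 3.53 CPM in flower bud 2. LEC1, ABI3 and OLE1, seed genes, were at most at 0.075 CPM in any of the 4 libraries. Of 6 nectary genes 1 was lower, 16.7% of this short list against 8.11% of all loci. It was BOP1, at 2.12 and 1.88 CPM in flower bud 1 and 4.78 and 4.37 CPM in flower bud 2. SWEET9, the sucrose exporter of nectaries, was at 5.28 and 4.72 CPM in flower bud 1 and 5.93 and 5.78 CPM in flower bud 2. Of 7 root markers 2 were tested and none past 2-fold, PIN2 at 0.725 and 0.885 CPM in flower bud 1 and 1.24 and 1.2 CPM in flower bud 2. COBL9 was at 5.27 and 5.09 CPM in flower bud 1 and 8.71 and 7.99 CPM in flower bud 2. The summed level of the 7 root markers was 6.51 CPM in the HiSeq run of the first bud sample and 10.1 CPM in the second.

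The clock genes held the largest fold of a locus higher in flower bud 1. LHY, a transcription factor of the morning loop that peaks around dawn, was at 318 and 315 CPM in flower bud 1 and 19.8 and 21.5 CPM in flower bud 2, a difference of 16.1-fold (interval 15.5 to 16.6) in the HiSeq runs and 14.7-fold in the multiplex runs. Its partner CCA1 was at 135 and 135 CPM in flower bud 1 and 42.2 and 42.5 CPM in flower bud 2, a difference of 3.20-fold (interval 3.12 to 3.29). RVE8, a related activator, was at 49.4 and 45.1 CPM in flower bud 1 and 20.7 and 21.0 CPM in flower bud 2. All 3 were more than 2-fold above either run of flower bud 2 in both runs of flower bud 1. LNK3, a coactivator that works with RVE8, was at 108 and 106 CPM in flower bud 1 and 42.5 and 41.9 CPM in flower bud 2. LNK4, its relative, was at 59.4 and 61.4 CPM in flower bud 1 and 29.4 and 30.1 CPM in flower bud 2. These 5 of 17 morning genes, 29.4% of the list against 1.83% of all loci, were higher and none lower. RVE4, LNK1, LNK2 and PRR9 lay within 2-fold, with PRR9, a repressor of CCA1 and LHY, at 42.0 and 42.5 CPM in flower bud 1 and 39.2 and 38.6 CPM in flower bud 2. The list median was 0.44 and its relative median 0.35. By relative fold LHY, CCA1 and LNK3 were higher and RVE7, a related gene, lower, while LNK4, at 0.89, fell short of 2-fold. RVE8 was at 1.16 in the HiSeq run and fell short in the multiplex run.

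Genes of midday and evening went the other way, with 9 of 18 lower in flower bud 1, 50.0% against 8.11% of all loci. The list had 1 member higher, 5.56% against 1.83%, and a median of -1.01. PRR5, a repressor that follows PRR9 and PRR7 through the day, was at 2.18 and 1.8 CPM in flower bud 1 and 13.8 and 14.7 CPM in flower bud 2, a difference of 6.32-fold (interval 5.69 to 7.03). GI, which links the clock to flowering time, was at 20.4 and 20.9 CPM in flower bud 1 and 97.8 and 94.3 CPM in flower bud 2, a difference of 4.8-fold (interval 4.63 to 4.97). ELF3, of the evening complex, was at 16.0 and 16.2 CPM in flower bud 1 and 43.8 and 45 CPM in flower bud 2. ELF4, of the same complex, was at 0.615 and 0.509 CPM in flower bud 1 and 2.41 and 1.89 CPM in flower bud 2. All of these were lower in flower bud 1 by more than 2-fold in both runs. GRP7, a clock-controlled RNA-binding protein, was at 98.9 and 97.8 CPM in flower bud 1 and 347 and 337 CPM in flower bud 2. FKF1, a blue-light receptor, was at 0.977 and 0.724 CPM in flower bud 1 and 3.07 and 2.93 CPM in flower bud 2. TOC1, an evening repressor of CCA1 and LHY, lay within 2-fold at 21.1 and 21.1 CPM in flower bud 1 and 39.2 and 41.0 CPM in flower bud 2. BBX19 was the member that was higher, at 20.04 and 18.9 CPM in flower bud 1 and 7.13 and 6.70 CPM in flower bud 2. After the adjustment for length and GC content 6 members were lower and 1 higher, with a median of -0.72. GI, at -0.98, FKF1, at -0.84, and ZTL, a relative of FKF1, at -0.48, were then not past 2-fold in both runs.

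Leaf 1 and leaf 2 differed in the same direction in LHY, CCA1 and GI, each past 2-fold in both run types. In the HiSeq runs LHY was at 451 CPM in leaf 1 and 35.1 CPM in leaf 2, CCA1 at 541 CPM in leaf 1 and 219 CPM in leaf 2 and GI at 102 CPM in leaf 1 and 256 CPM in leaf 2. In the leaves 6 of 17 morning genes were higher in leaf 1 and 1 lower, and 1 of 17 tested evening genes was higher and 10 lower. Of all loci tested in leaves, 9.66% were higher in leaf 1 and 4.89% lower. Leaf 3 and leaf 4, sequenced on a GA II, had LHY at 4.96 and 5.40 CPM and GI at 327 and 341 CPM. The hour of harvest is not among the labels, and its part in these differences was not tested.

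**Figure D4:**
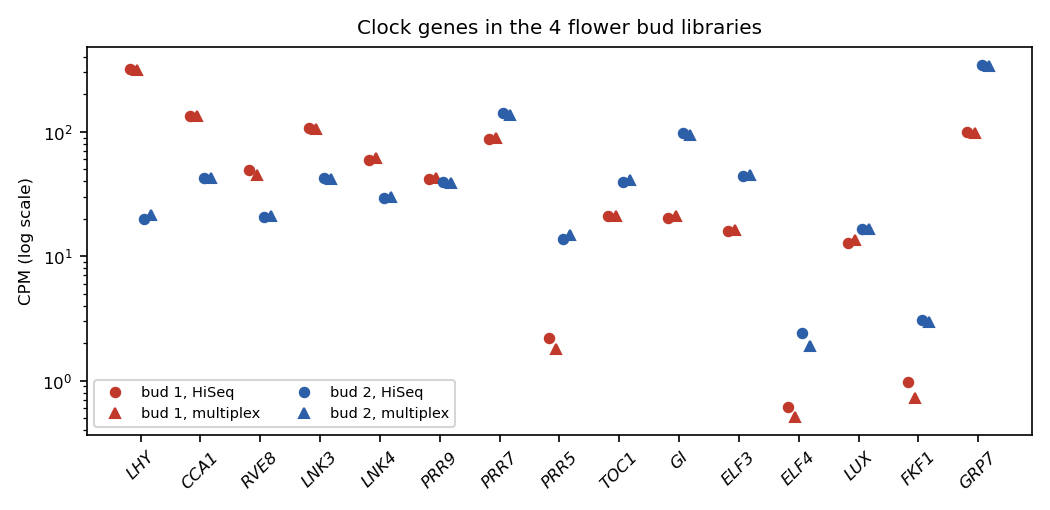
The CPM of 15 clock genes (y axis, log scale) are shown in the 4 flower bud libraries, flower bud 1 in red, flower bud 2 in blue, circles for HiSeq and triangles for multiplex runs. LHY is at 318 and 315 CPM in flower bud 1 and 19.8 and 21.5 in flower bud 2, while PRR5, GI, ELF3, ELF4, FKF1 and GRP7 are lower in flower bud 1.

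Of 46 photosystem and light-harvesting genes, 33 were below 0 in both runs and 13 above, 5 were lower past 2-fold, 10.9% against the similar 8.11% of all loci, and none higher, and the median was -0.31. PSAD2, which docks ferredoxin on photosystem I, was at 90.6 and 90.07 CPM in flower bud 1 and 382 and 377 CPM in flower bud 2, a difference of 4.22-fold (interval 4.15 to 4.29). Its copy PSAD1 was at 254 and 252 CPM in flower bud 1 and 724 and 708 CPM in flower bud 2. PSAF, of the plastocyanin side, was at 385 and 389 CPM in flower bud 1 and 1088 and 1061 CPM in flower bud 2. Flower bud 1 thus had less of these photosystem I transcripts in both runs. The other 2 past 2-fold belong to photosystem II. PSBY was at 179 and 179 CPM in flower bud 1 and 478 and 464 CPM in flower bud 2. The antenna protein LHCB4.1 was at 433 and 428 CPM in flower bud 1 and 1093 and 1057 CPM in flower bud 2. The antenna protein LHCB5 was near level at 2126 and 2118 CPM in flower bud 1 and 1987 and 1946 CPM in flower bud 2. In the leaves 19 of the 46 were higher in leaf 1 and none lower, where 9.66% of all loci tested in leaves were higher and 4.89% lower. The LHCB1 copies are near-identical, and their single values are uncertain.

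Of 18 Calvin cycle genes, 4 were lower and none higher, 22.2% against 8.11% of all loci, with a median of -0.54. RCA, the Rubisco activase, was at 1376 and 1394 CPM in flower bud 1 and 3465 and 3389 CPM in flower bud 2. The Rubisco small subunit RBCS3B was at 1595 and 1603 CPM in flower bud 1 and 3729 and 3614 CPM in flower bud 2. RBCS2B and RBCS1B, further copies, were 2.36 and 2.22-fold lower in flower bud 1. RBCS1A, another copy, was at 4926 and 4927 CPM in flower bud 1 and 6774 and 6607 CPM in flower bud 2. RCA and the first 3 small subunits passed 2-fold and RBCS1A did not, and by relative log2 fold RCA, at -0.74, lost its call. The summed CPM of the photosystem list was 34928 for flower bud 1 and 42079 for flower bud 2 in HiSeq runs, against at least 92229.5 in every leaf library. ELIP1 and ELIP2, chlorophyll-binding proteins that protect against strong light, went in the opposite direction. ELIP1 was at 271 and 269 CPM in flower bud 1 and 49.1 and 46.3 CPM in flower bud 2. ELIP2 was at 36.0 and 36.0 CPM in flower bud 1 and 10.4 and 10.4 CPM in flower bud 2. For ELIP1 the difference was 5.50-fold (interval 5.38 to 5.63).

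Of 10 genes induced by sugar starvation and darkness 5 were lower in flower bud 1 and none higher, 50.0% against 8.11% of all loci, with a median of -1.08 and a relative median of -0.63. DIN10, a raffinose synthase family gene induced in the dark, was at 21.5 and 22.3 CPM in flower bud 1 and 115 and 112 CPM in flower bud 2, a difference of 5.35-fold (interval 5.17 to 5.53). SEN1, a senescence-associated gene also induced in the dark, was at 2.27 and 2.22 CPM in flower bud 1 and 8.04 and 8.74 CPM in flower bud 2. DIN6, an asparagine synthetase, was at 133 and 132 CPM in flower bud 1 and 314 and 308 CPM in flower bud 2. By relative log2 fold DIN6, at -0.88, lost its call. AKINBETA1, a subunit of the energy-sensing SnRK1 kinase, was at 13.3 and 13.2 CPM in flower bud 1 and 38.8 and 38.2 CPM in flower bud 2. The last was TPS10, a trehalose phosphate synthase-like gene, at 22.7 and 22.0 CPM in flower bud 1 and 53.1 and 53.1 CPM in flower bud 2. DYL1, a dormancy-associated gene outside the list, was at 9.43 and 10.4 CPM in flower bud 1 and 83.8 and 82.8 CPM in flower bud 2. BT2, another starvation gene, was level at 1.43 and 1.47 CPM in flower bud 1 and 1.34 and 1.32 CPM in flower bud 2.

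Of 10 heat shock genes 5 were tested, 4 were lower in flower bud 1, 80.0% of those tested against 8.11% of all loci, and all 5 were below 0 in both runs, with a median of -1.77. HSFA2, a heat-inducible transcription factor, was at 1.21 and 1.39 CPM in flower bud 1 and 7.97 and 8.32 CPM in flower bud 2, a difference of 6.57-fold (interval 5.71 to 7.58). HSP70-4, a chaperone, was at 8.79 and 8.87 CPM in flower bud 1 and 51.2 and 50.1 CPM in flower bud 2. HSP101, which dissolves protein aggregates, was at 10.3 and 11.2 CPM in flower bud 1 and 35.3 and 34.1 CPM in flower bud 2. HSP90.1 was at 9.83 and 9.36 CPM in flower bud 1 and 20.5 and 20.7 CPM in flower bud 2. By relative fold HSFA2 and HSP70-4 were lower, at -2.81 and -1.69, and HSP101 and HSP90.1 were at -0.49 and -0.21. The small heat shock proteins HSP17.4, HSP17.6II, HSP17.6A, HSP22 and HSP21 were below the level for testing in both samples. In the leaves 4 of the 5 were lower in leaf 1 as well, where 4.89% of all loci tested in leaves were lower. HSFA2 was at 1.82 CPM in leaf 1 and 49.9 CPM in leaf 2.

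Of 12 tested cold and dehydration genes, 3 were lower and none higher, 25% against 8.11% of all loci, with a median of -0.39. RD29A, a reporter gene of both stresses, was at 31.2 and 30.9 CPM in flower bud 1 and 139.7 and 137 CPM in flower bud 2, a difference of 4.48-fold (interval 4.36 to 4.61). GOLS2, of raffinose synthesis, was at 0.173 and 0.429 CPM in flower bud 1 and 0.998 and 1.29 CPM in flower bud 2. GOLS3, of the same step, was at 0.263 and 0.536 CPM in flower bud 1 and 1.38 and 1.17 CPM in flower bud 2. All 3 were lower in both runs of flower bud 1. GOLS2 and GOLS3 were at low levels, and their log2 folds differed between the runs, at -2.51 and -1.56 for GOLS2 and -2.38 and -1.11 for GOLS3. CBF3, the activator of RD29A, was lower as well at 2.17 and 2.06 CPM in flower bud 1 and 8.88 and 9.94 CPM in flower bud 2, while COR15A, another CBF target, was near level at 455 and 455 CPM in flower bud 1 and 412 and 402 CPM in flower bud 2. Both touch genes named here were higher. TCH2, a calmodulin-like protein, was at 44.8 and 43.7 CPM in flower bud 1 and 13.8 and 14.2 CPM in flower bud 2. TCH4, a xyloglucan enzyme, was at 7.38 and 6.78 CPM in flower bud 1 and 1.58 and 1.71 CPM in flower bud 2. Of the 13 tested members of the wound, touch and early stress list these 2 were higher, 15.4% against 1.83% of all loci. CBF3 was the single lower one, 7.69% against the similar 8.11%. WRKY40, an early wound gene, was at 2.24 and 2.2 CPM in flower bud 1 and 1.57 and 1.29 CPM in flower bud 2.

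Of 23 jasmonate genes 2 were lower and none higher, with a median of 0.10. These were the lipoxygenases LOX6 and LOX3, which have long transcripts. LOX6 was at 36.7 and 37.4 CPM in flower bud 1 and 116 and 112 CPM in flower bud 2. LOX3 was at 38.2 and 37.7 CPM in flower bud 1 and 88.0 and 83.3 CPM in flower bud 2. By relative log2 fold LOX3 was at 0.08 and LOX6 at -0.71, and neither call held. The 2 lower members were 8.70% of the list, against 8.11% of all loci. JAZ10, a repressor of the pathway, was at 41.6 and 40.1 CPM in flower bud 1 and 26.4 and 25.2 CPM in flower bud 2. Of 11 tested salicylate genes PR2, a glucanase, was higher at 3.48 and 3.91 CPM in flower bud 1 and 1.19 and 1.26 CPM in flower bud 2. SARD1, a regulator of salicylate synthesis, was lower at 1.70 and 1.47 CPM in flower bud 1 and 3.86 and 4.31 CPM in flower bud 2. PR2 and SARD1 were each 9.09% of the tested list, against 1.83% of all loci higher and 8.11% lower. The list median was 0.02. Of 8 tested senescence genes none passed 2-fold, with a median of -0.27, and NYC1, of chlorophyll breakdown, was at 130.0 and 130.1 CPM in flower bud 1 and 187 and 179.9 CPM in flower bud 2. PAO, of the same pathway, was at 38.2 and 38.7 CPM in flower bud 1 and 64.4 and 66.1 CPM in flower bud 2. By relative fold 1 senescence gene was lower, NAP, a NAC transcription factor, at -1.42. Of 10 tested guard cell and trichome genes 1 was lower, 10% against the similar 8.11% of all loci, with a list median of 0.10. It was GL2, a trichome regulator, at 1.12 and 1.45 CPM in flower bud 1 and 4.73 and 4.55 CPM in flower bud 2. By relative fold GL2 was at -1.22 in the HiSeq run and not past 2-fold in the multiplex run.

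In specialised metabolism the calls were in single genes. Of 19 tested glucosinolate genes MYB29, a regulator of the aliphatic class, was higher at 1.33 and 1.34 CPM in flower bud 1 and 0.491 and 0.569 CPM in flower bud 2. TGG2, a myrosinase that cleaves glucosinolates, was lower at 2185 and 2172 CPM in flower bud 1 and 4790.2 and 4665 CPM in flower bud 2. Its copy TGG1 was within 2-fold at 2298 and 2302 CPM in flower bud 1 and 2821 and 2767 CPM in flower bud 2. By relative fold neither call held in both runs. TGG2 was at -0.99, and MYB29, at 1.18 in the HiSeq run, fell short of 2-fold in the multiplex run. CYP79B3, of the indole class, was higher at 1.03. MYB29 and TGG2 were each 5.26% of the tested list, against 1.83% of all loci higher and 8.11% lower. The list median was -0.15. Of 16 tested flavonoid genes 4 were higher, 25% against 1.83% of all loci, and 1 lower, 6.25% against 8.11%, with a median of 0.19 and a relative median of 0.51. F3H, an early enzyme of the pathway, was at 335 and 332 CPM in flower bud 1 and 165 and 159 CPM in flower bud 2. LDOX, of the anthocyanin branch, was at 2.47 and 2.52 CPM in flower bud 1 and 0.496 and 0.509 CPM in flower bud 2, a difference of 4.98-fold (interval 3.95 to 6.35). TT19, a glutathione transferase of pigment transport, was at 15.7 and 15.6 CPM in flower bud 1 and 5.82 and 5.75 CPM in flower bud 2. PAP2, an anthocyanin regulator, was at 1.33 and 1.1 CPM in flower bud 1 and 0.514 and 0.509 CPM in flower bud 2. TTG1, their WD40 cofactor, was the lower one at 22.9 and 23.3 CPM in flower bud 1 and 48.5 and 48.3 CPM in flower bud 2. By relative fold PAP2, at 1.04 in the HiSeq run, fell short of 2-fold in the multiplex run, and the other 4 calls held. CHS, the entry enzyme, was level at 769.8 and 766 CPM in flower bud 1 and 894 and 874 CPM in flower bud 2. In the leaves LDOX was lower in the sample with number 1, at 4.02 CPM in leaf 1 and 19.6 CPM in leaf 2.

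**Figure D5:**
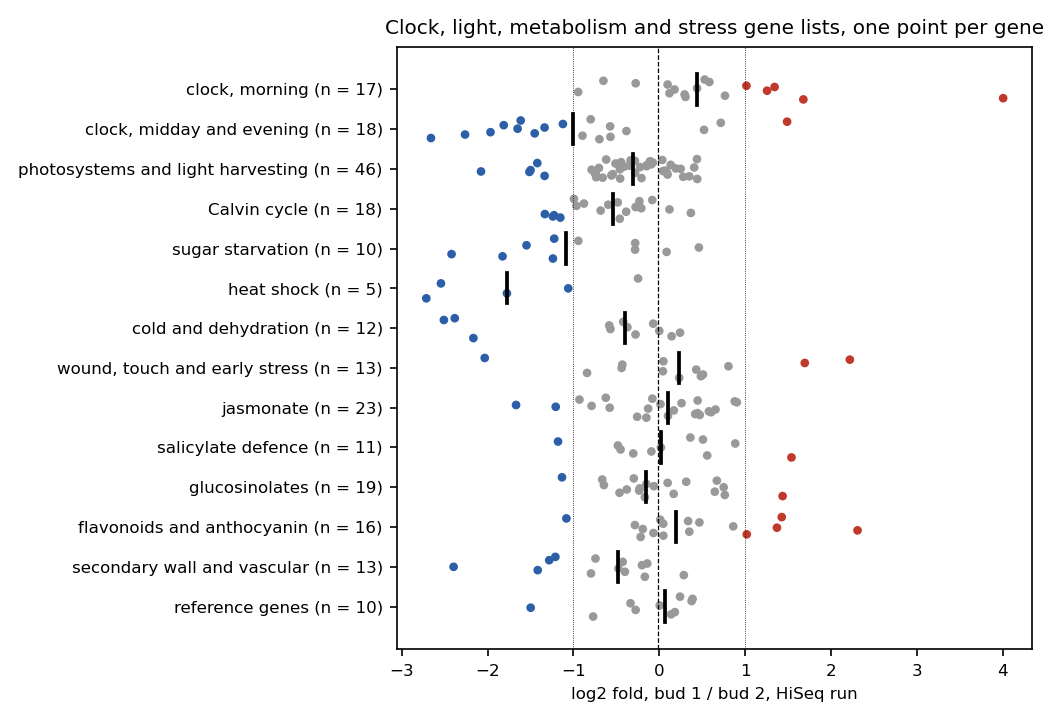
Each point is a tested gene of a clock, photosynthesis, metabolism, stress or reference list, placed by its log2 fold of flower bud 1 over flower bud 2 in the HiSeq runs (x axis), with list medians as black bars, the median of all loci as a dashed line and 2-fold as dotted lines. The evening clock (-1.01), sugar starvation (-1.08) and heat shock (-1.77) medians lie left of -1, and LHY is the red point at 4.01.

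Several cell wall genes were among the loci with the largest folds lower in flower bud 1. EXT3, an extensin that crosslinks in the cell wall, was at 9.19 and 8.98 CPM in flower bud 1 and 161 and 158 CPM in flower bud 2, a difference of 17.5-fold (interval 16.7 to 18.4). PRP4, a proline-rich wall protein, was at 146 and 141 CPM in flower bud 1 and 1812 and 1759.7 CPM in flower bud 2, a difference of 12.4-fold (interval 12.3 to 12.6). CWLP, annotated as a linker of wall and membrane, was at 50.1 and 51.1 CPM in flower bud 1 and 446 and 429.7 CPM in flower bud 2. These 3 wall proteins were thus 8.91 to 17.5-fold lower in flower bud 1. AGP19, an arabinogalactan protein, was at 1.14 and 0.911 CPM in flower bud 1 and 10.04 and 9.79 CPM in flower bud 2. PERK12, a receptor-like kinase with an extensin-like outer part, was at 1.53 and 1.34 CPM in flower bud 1 and 13.5 and 14.0 CPM in flower bud 2. PERK10, of the same family, was at 21.2 and 21.4 CPM in flower bud 1 and 163 and 156 CPM in flower bud 2. A group of 136 tested loci annotated as proline-rich or extensin was chosen after the values were seen. It was taken by those words alone, so it can also hold proteins that are not part of the wall. Of these 136, 47 were lower, 34.6% against 8.11% of all loci, and 5 higher, 3.68% against 1.83%. By relative fold 41 were lower and 3 higher, where over all loci the shares were 4.96% and 1.03%. Their median C content was 22.9%, against 19.4% over all tested loci. In leaves 21 of 115 were higher in leaf 1 and 5 lower, where 9.66% of all loci tested in leaves were higher and 4.89% lower.

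More annotation groups were counted, also chosen after the values were seen, against 8.11% of all loci lower and 1.83% higher. Of 20 tested formins, which nucleate actin filaments, 12 were lower (60.0%) and 1 higher (5%), with a median of -1.56 and a relative median of -0.62, and their median length was 2612 bases. Of 48 tested arabinogalactan loci 14 were lower (29.2%) and 4 higher (8.33%). Of 49 loci annotated as leucine-rich repeat family proteins 16 were lower (32.7%) and 1 higher (2.04%). By relative fold 8 formins were lower and 2 higher, and 15 arabinogalactan loci were lower and 1 higher. The leucine-rich repeat loci had 16 lower and 1 higher by relative fold. Over all loci the relative shares were 4.96% lower and 1.03% higher. Xyloglucan endotransglucosylase/hydrolases, enzymes that remodel growing walls, had 3 of 20 tested higher (15%) and none lower, with the same counts by relative fold. XTH16 was at 204 and 205 CPM in flower bud 1 and 44.6 and 44.5 CPM in flower bud 2, a difference of 4.57-fold (interval 4.46 to 4.68). EXO, a cell expansion gene induced by brassinosteroid, was at 129 and 129 CPM in flower bud 1 and 26.3 and 24.9 CPM in flower bud 2. AGP21 was at 144 and 146 CPM in flower bud 1 and 39.9 and 39.2 CPM in flower bud 2.

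Of 13 tested secondary wall and vascular genes 4 were lower and none higher, 30.8% against 8.11% of all loci, with a median of -0.48. LAC4 (IRX12), a laccase of lignin formation, was at 23.4 and 24.3 CPM in flower bud 1 and 123 and 118 CPM in flower bud 2, a difference of 5.26-fold (interval 5.09 to 5.43). IRX3, a cellulose synthase of secondary walls, was at 18 and 17.2 CPM in flower bud 1 and 47.9 and 48.6 CPM in flower bud 2. XCP2, a protease of xylem vessels, was at 30.9 and 31.9 CPM in flower bud 1 and 75.0 and 69.9 CPM in flower bud 2. SUC2, the sucrose carrier of phloem companion cells, was at 54.9 and 55.7 CPM in flower bud 1 and 127 and 126 CPM in flower bud 2. IRX1 and IRX5, the other secondary wall cellulose synthases, were within 2-fold. IRX1 was at 44.6 and 43.1 CPM in flower bud 1 and 58.8 and 56.6 CPM in flower bud 2. By relative log2 fold LAC4 was at -1.59 and XCP2 at -1.38, while IRX3, at -0.13, and SUC2, at -0.40, lost their calls.

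Over all tested loci with at least 5 CPM and a symbol, the 15 with the largest fold in each direction, by the run with the smaller fold, were named. On the higher side these were, beside LHY, ELIP1, MRD1, EXO, XTH16, HEI10, AGP21, ELIP2, CCA1 and TCH2, 5 loci with other roles. BGLU28, a beta-glucosidase, was at 15.3 and 13.9 CPM in flower bud 1 and 2.48 and 3.02 CPM in flower bud 2. IGMT5, an O-methyltransferase of indole glucosinolates, was at 14.3 and 14.4 CPM in flower bud 1 and 3.33 and 3.32 CPM in flower bud 2. BSMT1, which methylates salicylate and benzoate, was at 103 and 109 CPM in flower bud 1 and 28.7 and 28.8 CPM in flower bud 2. LGT9, annotated as a sugar transferase, was at 57.4 and 56.5 CPM in flower bud 1 and 16.4 and 15.4 CPM in flower bud 2. DUT1, annotated as a dUTP pyrophosphatase, was at 48.3 and 47.6 CPM in flower bud 1 and 15 and 14.8 CPM in flower bud 2. The 15 higher loci were 3.20 to 16.1-fold above flower bud 2.

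On the lower side the 15 included HUA2, CCT, REF4, KTF1 and HEN4. They are set together here by role after their values were seen, and the share of such genes over all loci was not counted. HUA2, a regulator of flowering time, was at 8.69 and 8.98 CPM in flower bud 1 and 80.1 and 77.7 CPM in flower bud 2, a difference of 9.21-fold (interval 8.75 to 9.70). CCT and REF4, subunits of the Mediator complex that links transcription factors to RNA polymerase II, were next. CCT was at 14.6 and 15.5 CPM in flower bud 1 and 111 and 111 CPM in flower bud 2. REF4 was at 6.29 and 6.41 CPM in flower bud 1 and 44.4 and 42.2 CPM in flower bud 2. KTF1, of RNA-directed DNA methylation, was at 10.9 and 11.2 CPM in flower bud 1 and 82.6 and 79.5 CPM in flower bud 2. HEN4, a KH-domain protein that helps process the AG transcript, was at 4.38 and 4.58 CPM in flower bud 1 and 30.1 and 29.2 CPM in flower bud 2. The transcripts of these 5 were long, from 2840 bases for HEN4 to 6772 for CCT. All lay in the longest decile, where 24.7% of loci were lower, against 8.11% of all loci. Their relative log2 folds were -1.92, -2.17, -1.54, -1.65 and -2.40. NIA1, a nitrate reductase, was at 15.9 and 16.6 CPM in flower bud 1 and 128 and 124 CPM in flower bud 2. MOT2, annotated as a sulfate transporter, was at 2.22 and 2.12 CPM in flower bud 1 and 21.8 and 20.7 CPM in flower bud 2. RKF3, a receptor-like kinase, was at 1.91 and 1.58 CPM in flower bud 1 and 12.5 and 12.9 CPM in flower bud 2. AG itself differed by less than 2-fold.

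Of 10 genes used as references in expression studies 1 passed 2-fold, 10% of the list. It was lower in flower bud 1, as were 8.11% of all loci. The elongation factor locus AT5G60390 was at 781 and 781 CPM in flower bud 1 and 2205 and 2130.3 CPM in flower bud 2, a difference of 2.82-fold (interval 2.81 to 2.84). UBQ10, a polyubiquitin, was at 956 and 954 CPM in flower bud 1 and 1629 and 1583 CPM in flower bud 2, short of 2-fold. ACT2, an actin, was nearly level at 313 and 311 CPM in flower bud 1 and 312 and 302 CPM in flower bud 2. PP2AA3, a phosphatase subunit, was at 94.5 and 93.2 CPM in flower bud 1 and 85.8 and 84.0 CPM in flower bud 2. GAPC1, of glycolysis, was at 1101 and 1103 CPM in flower bud 1 and 931 and 913 CPM in flower bud 2. The list median was 0.07.

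Transcripts of the organelles, which polyA selection captures only in part, took smaller shares in flower bud 1. Chloroplast-encoded loci took 0.0090% of the pairs in both runs of flower bud 1 and 0.0179% and 0.0178% in those of flower bud 2. Mitochondrial loci took 0.0026% in both runs of flower bud 1 and 0.0064% and 0.0067% in those of flower bud 2. Of 45 tested chloroplast loci 20 were lower (44.4%) and none higher, and of 20 tested mitochondrial loci 13 were lower (65.0%) and none higher, against 8.11% of all loci lower. In leaf 1 the chloroplast share was 0.0275% to 0.0281% and in leaf 2 0.0493% and 0.0502%, so in both tissues the sample with number 2 held more.

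The calls of the buds were set beside those of leaf 1 against leaf 2, which share no library with them. Of the 382 loci higher in flower bud 1, 233 were tested in leaves, and 129 of them were also higher in leaf 1 and 7 lower, where 9.66% of all loci tested in leaves were higher and 4.89% lower. Of the 1690 loci lower in flower bud 1, 1553 were tested in leaves, with 223 also lower in leaf 1 and 86 higher, to be read against the same shares. Over the 18027 loci tested in both tissues the Pearson r between the 2 folds was 0.316, and 0.255 with the relative bud fold, as a description of loci that share their libraries. The labels do not say whether a bud and a leaf sample with the same number came from the same plants.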

How the data were processed

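Polyadenylated RNA of wild-type Arabidopsis was sequenced in 11 libraries from 6 biological samples, of which 4 libraries from 2 flower bud samples were compared here and 7 leaf libraries were set beside them. The deposited tables hold, per locus, the count of properly mapped read pairs, with counts of single reads and of pairs within the insert limit beside it, per the file headers, which give a limit of 500 in the bud libraries. Reads were mapped with Bowtie2 2.0, per the submitters' processing notes. The sources used here do not name a genome build, an annotation release, a strand setting or a rule for reads that fit several loci.

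Counts of pairs were used as deposited. CPM are read pairs over 1000000 pairs of the library total after scaling by TMM factors (edgeR 4.0.16, R 4.3.3). Leaf CPM used factors over all 11 libraries, brought to the scale of the bud libraries. Log2 folds used a prior of 0.5 pairs. Loci with a mean of at least 0.5 CPM in both run types were tested, and a call needed 2-fold in both. Exact 95% intervals of a ratio come from Clopper-Pearson limits on the share of pairs and cover counting error only, since reads without molecular identifiers are not independent molecules. The floor of 3 pairs is 0.0164 CPM in the HiSeq runs and 0.0839 and 0.0872 CPM in the multiplex runs. Lengths come from the files, and GC and C content from the longest RefSeq transcripts of TAIR10.1. Of 28094 locus IDs, 27320 matched RefSeq, which gave the symbols.

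Because each group is 1 biological sample, no p-value, set test or resampling was used. In each of 33 lists up to 4 members past 2-fold per direction were named, or the 2 with the highest CPM where none passed, and the 15 loci per direction with the largest fold over all tested loci with at least 5 CPM. Members that order a stage or an organ, and others for their role, were also named, after their values were seen. The members and lists were chosen with earlier results of these data known. Alternatives were library totals, upper quartile factors and DESeq2 1.42.0 size factors, nuclear loci only, other filters, the other count columns, single run types, other folds and the relative fold. Sequences and promoter motifs were not analysed here.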

Additional observations from a re-analysis of the deposited data

How the results depend on the processing

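The 382 loci higher and 1690 lower in flower bud 1 were recounted under each alternative. The higher count was 666 with library totals, 647 with upper quartile factors, 1069 with no filter on low counts, 193 with a filter of 5 CPM and 630 in the multiplex run alone. It was 2314 at 1.5-fold, 18 at 4-fold, 158 where the counting limit had to pass 2-fold and 212 by relative fold, an alternative chosen after seeing the data. The lower count was 3633 at 1.5-fold, 249 at 4-fold and 1023 by relative fold, and between 1191 and 2208 under the others. With DESeq2 size factors the counts were 369 and 1724. Of the 573 loci in the lists, tested or not, 23 were higher and 60 lower, where 1.83% and 8.11% of all tested loci were. The higher count of list members was 37 with library totals, 36 with upper quartile factors and 14 with a filter of 5 CPM. Their lower count was 53 with library totals. Of the 100 loci named by rule, 65 moved by more than the SD between runs of 0.166 by relative fold. Of these 1 changed sign, LOX3, whose log2 fold went from -1.21 to 0.0752. In the multiplex run alone 15 moved, and none under the other alternatives, where the filter of 5 CPM left 82 of them. Most of those alternatives could not move a locus by that much. A change of scale shifts all folds of a run by 1 constant, here below the SD. The filters and the HiSeq run alone keep the same fold. Calls did change, and with library totals CRC, at -0.96, HSP90.1, at -0.92, and AT3G09630, at -0.93, were among those lost. List medians moved by more than that SD for 11 of 33 lists by relative fold. Lists whose median changed sign under some alternative numbered 8, all with medians within 0.15 of 0, and the female gametophyte list had no member above the filter of 5 CPM. No paired analysis was possible because the comparison is of 1 biological sample with 1. The planned search for promoter motifs was not run, as it needs a promoter table that was not used here. Depth limits loci below 0.5 CPM, and no value here bears on the spread between plants.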

Other observations

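Loci whose annotation begins with histone, and WRKY loci, had calls that the account of the buds did not describe. Both annotation groups were chosen after the values were seen. The histone group was taken by that word alone, so it can also hold enzymes that act on histones. Of its 98 tested loci 14 were higher (14.3%, against 1.83% of all loci) and 7 lower (7.14%, against 8.11%) in flower bud 1. The median log2 fold was 0.33, and by relative fold 1 was higher and 4 were lower. Their transcripts were short, with a median length of 889.5 bases. Several histone copies are near-identical, so single values are uncertain. Of 35 tested loci annotated as WRKY DNA-binding proteins, plant transcription factors of stress responses, none was higher and 4 were lower, 11.4% against the similar 8.11% of all loci, with a median of -0.25. By relative fold 8 were lower, where 4.96% of all loci were. In the leaves 2 of 38 tested WRKY loci were higher in leaf 1 and 5 lower, where 9.66% of all loci tested in leaves were higher and 4.89% lower.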
